A study of Mus musculus with 18 samples.

Results

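The liver efflux transporters described here are the products of 9 genes of the ATP-binding cassette (ABC) family: Abca1, Abcb1a, Abcb4, Abcc2, Abcc3, Abcc6, Abcg2, Abcg5 and Abcg8. They were chosen by name, by taking every probe set of the array whose annotated symbol was 1 of these 9, which gave 12 of 45101 probe sets. Abca1 has 3 probe sets, Abcb1a has 2 and each of the other genes has 1. All 12 lay above the filter on low signal (a mean signal of 57.5), and each gene was tested through its brightest probe set, so that the 9 genes stand among 11018 genes tested. The samples were livers of offspring of DUK, an outbred mouse line cross-bred from 4 outbred and 4 inbred lines, measured on 18 Affymetrix Mouse Genome 430 2.0 arrays, 3 in each of 6 groups. Dams ate isoenergetic diets with 20% or 40% protein by weight. In the control group this was 20% throughout. In the HP (high protein) pregnancy group it was 40% in pregnancy and 20% in lactation, and in the HP lactation group 20% in pregnancy and 40% in lactation. Livers were taken at postnatal day 21 or day 150. The sex of the offspring and their own diet before day 150 were not given in the sources used here. Each array carried RNA pooled from several livers. The labels disagree on the number of animals in a pool: the sample descriptions give 3, the extraction text gives 4 at day 21 and 3 to 4 at day 150, and the series design forms 3 pools from 4 to 5 animals. Pools of a group may therefore share animals, and every standard error and p-value below describes the spread between pools. If pools share animals, the p-values are too small.

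ABC transporters use the energy of ATP to move substrates across membranes, and hepatocytes place them on particular faces of the cell. On the canalicular face, which drains into bile, ABCG5 and ABCG8 work as an obligate pair that exports cholesterol and plant sterols, ABCB4 moves phosphatidylcholine into bile, ABCC2 exports conjugates such as bilirubin glucuronide, and ABCG2 and the Abcb1a product export drugs and other foreign compounds. On the sinusoidal face, which borders the blood, ABCA1 loads cholesterol and phospholipid onto apolipoprotein A-I to form nascent high density lipoprotein, ABCC3 returns conjugates to the blood, and ABCC6 mediates the release of ATP from hepatocytes. Several of these genes are known targets of nuclear receptors: Abca1, Abcg5 and Abcg8 of the oxysterol receptor LXR, Abcb4 and Abcc2 of the bile acid receptor FXR, and Abcc2 and Abcc3 of CAR, PXR and the stress factor NRF2.

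Some properties of the arrays moved with the groups. The 3'/5' signal ratio of Gapdh, a measure of how complete the labelled RNA was, ran from 0.821 to 0.993 on the 9 arrays of day 21 and from 1.3 to 1.8 on the 9 of day 150. That of Actb ran from 1.96 to 3.15 and from 4.06 to 6.5. Neither ratio overlapped between the days, so that day and the 3'/5' ratio cannot be told apart in any comparison of day 150 with day 21. On 2 arrays Xist, which female cells transcribe from their silenced X chromosome, was high: 1 of its probe sets read 2026 on control replicate 2 of day 21 and 5080 on HP lactation replicate 4 of day 150, against no more than 35.3 elsewhere. All 10 hepatocyte markers on the array were above the filter, and their summed signal ran from 230951 to 330192 at day 21 and from 264296 to 451328 at day 150. All 10 stellate cell and fibroblast markers were above it too, with sums of 20835 to 32219 at day 21 and 12634 to 20598 at day 150, which do not overlap. For the 11 Kupffer cell markers the sums were 14201 to 23234 and 20234 to 30090, and for the 11 endothelial markers 11804 to 18052 and 12783 to 20179. Of 7 cholangiocyte markers on the array 3 were above the filter, with Krt19, Krt7, Cftr and Muc1 below it, and their sums were 247 to 573 and 297 to 481. The lymphocyte list had 2 of 6 above it, with sums of 107 to 340 and 199 to 359, and the erythroid list 1 of 5, with 271 to 525 and 427 to 1360. Of 5 pancreas acinar markers 2 were above it, with sums of 1536 to 2916 at day 21 and 5511 to 8039 at day 150, which do not overlap. That sum is nearly all Cela1, which rose averaged over diets (1.61), while Cela2a fell (-0.81, adjusted p = 0.015) and Prss2, Cpa1 and Cpb1 were below the filter. In whole liver, fewer cells of a type and less RNA per cell cannot be told apart, and the part of these shifts in the changes of the transporters was not tested.

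The clearest pattern among the 9 genes was by day. Averaged over the 3 diets, Abcg5 was 2.34-fold lower at day 150 than at day 21 and Abcg8 1.79-fold lower. Abcb1a, Abcb4 and Abcc6 were also lower, and Abcc3, Abcg2 and Abca1 were higher. In total 3 members rose and 5 fell, and only Abcc2 did not pass the threshold (an adjusted p under 0.05 in limma). This average over diets was chosen after the data were seen. Among all 11018 genes, 47.6% passed in the same comparison, 25.3% higher and 22.3% lower, and the 8 of 9 members are to be read against that background. A test of any difference among the 6 groups called 7 of the 9 members and 41.5% of all genes; Abca1 (adjusted p = 0.058) and Abcc2 (adjusted p = 0.1) were not called. With the 3'/5' ratios as covariates, 0 of the 9 members passed in any comparison of day or in the test of any difference among groups. Averaged over diets Abcc3 was then at 1.1 (SE 0.43) and Abcb4 at -0.31 (SE 0.3), while Abcg8 was at -0.32 (SE 0.54), Abcc6 at -0.09 (SE 0.33), Abcg2 at 0.18 (SE 0.28), Abca1 at 0.33 (SE 0.35) and Abcg5 at -0.65 (SE 0.61), against 0.58, -0.39, -0.84, -0.4, 0.32, 0.23 and -1.23 without the covariates. The median standard error for the average over diets then went from 0.109 to 0.436, and the number of all genes called from 5245 to 24.

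**Figure D1:**
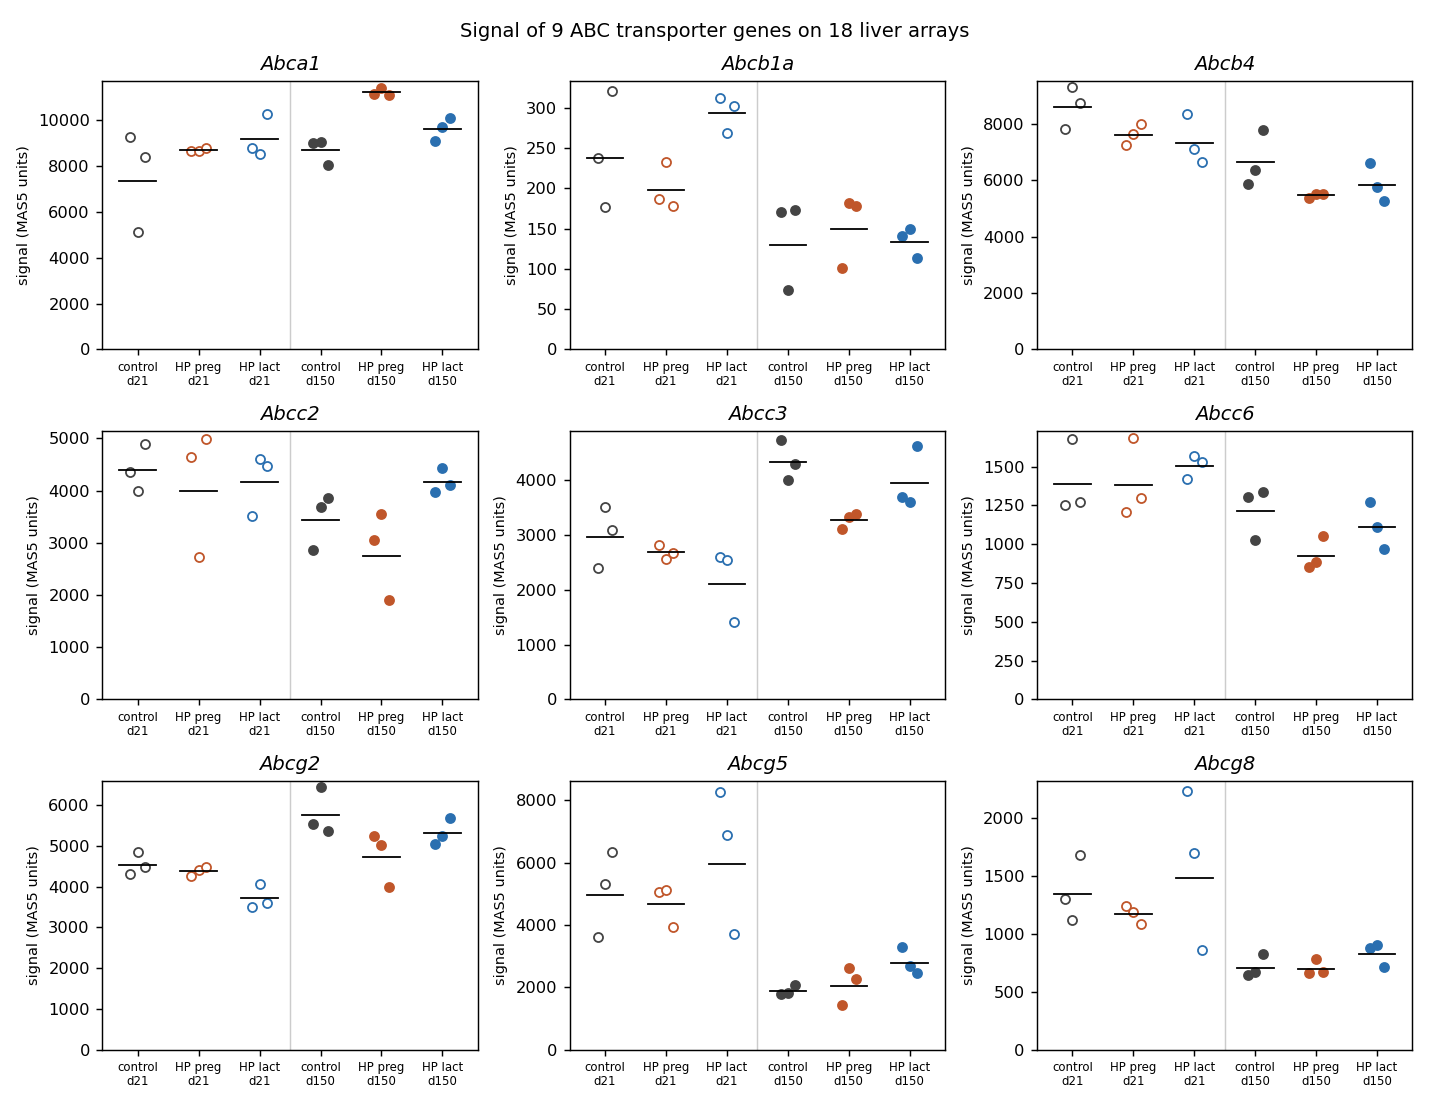
Deposited signal of each of the 9 transporter genes (vertical axes, MAS5 units, each starting at 0) on the 18 arrays, by maternal diet (control grey, HP pregnancy orange, HP lactation blue) and day (open at day 21, filled at day 150). Each point is 1 array and each bar a group's geometric mean; for Abcg5 all 9 arrays of day 150 lie below all 9 of day 21, and levels may not be compared between genes.

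Within single diets the counts were smaller. In control offspring 2 members rose and 3 fell from day 21 to day 150, against 17.8% of all genes called, 9.70% higher and 8.08% lower. After HP pregnancy 0 rose and 4 fell, against 23.6% of all genes, 12.1% higher and 11.5% lower. After HP lactation 2 rose and 4 fell, against 25.7% of all genes, 14.1% higher and 11.6% lower. The 3 arrays of one day lay beyond the 3 of the other in 7 members in control and in 6 in each HP diet. Over all genes day 150 lay wholly above in 18.6%, 23.2% and 20.0% and wholly below in 16.6%, 20.7% and 17.2%. The median log2 change of the 9 members was -0.35 in control, and -0.48 and -0.32 in the HP pregnancy and HP lactation groups, where the median of all genes was 0.02, 0.02 and 0.03. The 3 comparisons use separate arrays, but each shares its arrays with the diet comparisons below.

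**Figure D2:**
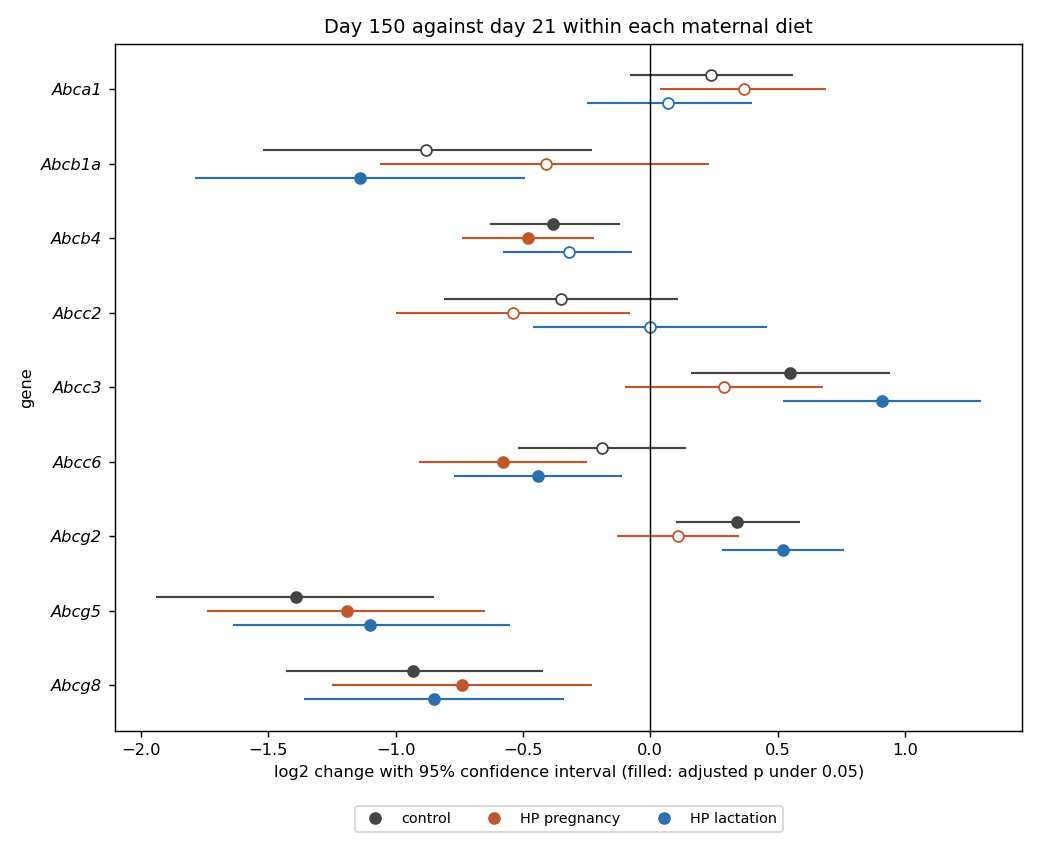
Log2 change of the 9 genes (vertical axis) from day 21 to day 150 within each maternal diet (horizontal axis; points are the fitted change, lines its 95% confidence interval, filled where the adjusted p is under 0.05). Abcg5 and Abcg8 are filled and below 0 in all 3 diets; the 3'/5' ratio of the arrays rose with day, and no point stays filled with it as a covariate.

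Of the sterol exporters, Abcg5 had signals of 3623, 5296 and 6338 at day 21 in control offspring, 5071, 5124 and 3946 after HP pregnancy, and 8265, 6870.3 and 3707 after HP lactation. Its signals at day 150 were 1789, 1808 and 2076 in control, 1446, 2624 and 2263 after HP pregnancy, and 3280.1, 2684 and 2446 after HP lactation. The highest array of day 150 thus lay below the lowest of day 21, a separation of all arrays that 4.20% of all genes showed in this direction and that no other member showed. Abcg5 fell by 1.39 on the log2 scale in control (SE 0.26, adjusted p = 0.0013), by 1.19 after HP pregnancy (SE 0.26, adjusted p = 0.0029) and by 1.1 after HP lactation (SE 0.26, adjusted p = 0.0048). These changes kept their sign in all alternatives and passed in 17 of 18, 17 of 18 and 16 of 17 of them. The exception was the fit with the 3'/5' ratios, where the changes were -0.95 (SE 0.51, adjusted p = 0.51), -0.57 (SE 0.71, adjusted p = 0.89) and -0.43 (SE 0.73, adjusted p = 0.98).

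Abcg8, the other subunit, had 1299, 1117 and 1685 at day 21 in control, 1239.7, 1189 and 1085 after HP pregnancy, and 2240.1, 1701 and 862 after HP lactation. At day 150 it had 643, 671 and 824 in control, 658, 781 and 668 after HP pregnancy, and 875, 901 and 714 after HP lactation. In control and after HP pregnancy the days did not overlap. After HP lactation they did, through replicate 3 of day 21, the array that was also lowest of its group in Abcg5. The change was -0.93 in control (SE 0.24, adjusted p = 0.013), -0.74 after HP pregnancy (SE 0.24, adjusted p = 0.033) and -0.85 after HP lactation (SE 0.24, adjusted p = 0.015). Single arrays decided some of these calls. In control Abcg8 missed the threshold without day 21 replicate 3 (-0.77, adjusted p = 0.066) and without day 150 replicate 1 (-0.86, adjusted p = 0.05). After HP pregnancy it missed without any 1 of the 6 arrays (-0.82 to -0.69), and after HP lactation without day 21 replicate 1 (-0.55, adjusted p = 0.1), day 21 replicate 2 (-0.75, adjusted p = 0.058) or day 150 replicate 6 (-0.74, adjusted p = 0.058).

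Abcg5 and Abcg8 lie head to head on chromosome 17, and the stretch between their starts is shown because both genes fell by day in all 3 diets and it lies upstream of both. In RefSeq (GRCm38.p6) Abcg5 starts at 84683011 on the minus strand and Abcg8 at 84683121 on the plus strand. The 109 bases between them, chr17:84683012-84683120, are written here 5′ to 3′ on the plus strand, with capitals where AGATAA, a motif of GATA factors, is found on the opposite strand.
Abcg5-Abcg8 intergenic stretch: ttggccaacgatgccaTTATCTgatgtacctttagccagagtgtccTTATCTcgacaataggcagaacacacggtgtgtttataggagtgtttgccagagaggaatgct

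Both strands were searched, and the motif occurred 2 times, at positions 17 and 47 from the Abcg5 side. Among 32851 starts in RefSeq, 3.98% had the motif at least 1 time in a stretch of the same length upstream. That is the share with any match and not with 2. GATA factors were not in the lists of related genes, so the share is no test of the motif. Promoter windows of 300 bases were held for 7 of the 9 genes, 10 windows in all, and AGATAA was found in 2 of them, those of Abcg5 and of Abcg8 at this start, against 11.2% of all such windows. Each of those windows held 3 matches, and the 11.2% is the share with any match. The windows overlap and share the 2 matches between the starts, so they are 1 locus and not 2 separate cases. The LXR direct repeat (AGGTCA, any 4 bases, AGGTCA) and the FXR inverted repeat (AGGTCA, any 1 base, TGACCT) were found in 0 of the 10 windows (0.0152% and 0.00913% of all windows). The NRF2 antioxidant element TGACNNNGC was found in 2 of 10, those of Abcb1a and Abcc2, against 12.4% of all windows. A match is a description of the letters only. For LXR and FXR only exact repeats were counted, and at shares this low 0 of 10 windows was nearly fixed in advance. Looser elements are therefore not shown to be absent. RefSeq lists another Abcg8 start at 84676302, inside Abcg5.

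Correlations within each day were computed for all pairs of members, and those of Abcg5 with Abcg8 are given first. Over the 9 arrays of day 21 Pearson's r was 0.86 (exact permutation p = 0.003) and Spearman's rho 0.68 (exact permutation p = 0.05), and r was 0.93 without the 2 arrays farthest from the median of Abcg5. Those were HP lactation replicate 1 and control replicate 1. HP lactation replicate 3, low in both genes, stayed in, so the 0.93 does not show how far r rests on that array. Over the 9 arrays of day 150 r was 0.77 (exact permutation p = 0.018), rho was 0.83 (exact permutation p = 0.0083), and r was 0.67 without the 2 farthest arrays. The values come from 72 pairs of members, 36 on each day, and the adjusted values were 0.11 and 0.19 for r and 0.36 and 0.16 for rho. None of the 72 pairs had an adjusted p under 0.05 for r or rho. Other pairs had an r of like size. At day 150 Abca1 ran against Abcb4 (r = -0.86, exact permutation p = 0.0016, adjusted 0.11; rho = -0.82, exact permutation p = 0.011, adjusted 0.16; r = -0.78 without 2 arrays) and against Abcc6 (r = -0.85, exact permutation p = 0.005, adjusted 0.11; rho = -0.85, exact permutation p = 0.0061, adjusted 0.16; r = -0.75 without 2 arrays). At day 21 Abcb4 and Abcc3 had an r of 0.8 (exact permutation p = 0.0062, adjusted 0.11; rho = 0.75, exact permutation p = 0.025, adjusted 0.25), which was 0.46 without the 2 farthest arrays and so rests on them. The arrays of a day include 3 diets, and both genes are read from the same pools.

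**Figure D3:**
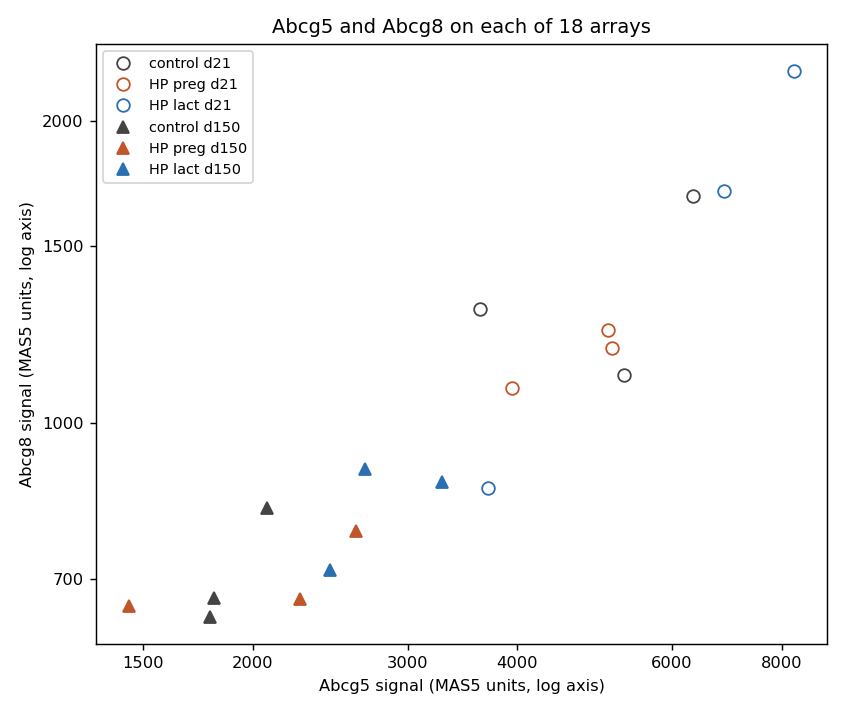
Signal of Abcg5 (horizontal, log axis) and Abcg8 (vertical, log axis) on the 18 arrays, with circles for day 21 and triangles for day 150, coloured by maternal diet. The arrays of day 150 lie at the lower left and those of day 21 at the upper right; HP lactation day 21 replicate 3 is the circle with an Abcg8 signal of 862, beside the triangles.

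Abca1, the sinusoidal exporter of cholesterol to apolipoprotein A-I, had 9273, 5128 and 8406 at day 21 in control, 8662, 8661 and 8786 after HP pregnancy, and 8806, 8510 and 10259 after HP lactation. The arrays of day 150 gave 8991, 9069.5 and 8049.8 in control, 11155, 11397 and 11087 after HP pregnancy, and 9092, 9709 and 10116 after HP lactation. The lowest value, 5128, belongs to the control array with Xist signal, and the 3 HP pregnancy arrays of day 150 lay above all others. Averaged over diets Abca1 rose by 0.23 from day 21 to day 150 (SE 0.09, adjusted p = 0.044), but it passed in no single diet (0.24, 0.37 and 0.07, SE 0.15 each). The average missed the threshold in 13 of 18 fits that left out 1 array, with an adjusted p up to 0.079. Without control day 21 replicate 2 it was at 0.14 (SE 0.06, adjusted p = 0.055), and it passed in 12 of its 29 alternatives. The remaining Abca1 probe sets, both far dimmer, went the other way. The brighter of them, with signals of 76.8 to 285, was at -0.52 (SE 0.18, adjusted p = 0.044 over all 45037 probe sets that are no controls), and the dimmest, with 25 to 133, at -0.66 (SE 0.25, adjusted p = 0.068). The direction of Abca1 by day therefore depends on the probe set.

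Abcb4, the phospholipid floppase of bile, had 7822, 9318 and 8754 at day 21 in control, 7243, 7646 and 7985 after HP pregnancy, and 8336, 7095 and 6633 after HP lactation. By day 150 the values were 5885, 6369.6 and 7795 in control, 5375, 5507 and 5510.5 after HP pregnancy, and 6624, 5746 and 5247 after HP lactation. Within each diet the arrays of day 150 lay below those of day 21, by a narrow margin in control and after HP lactation. It fell after HP pregnancy (-0.48, SE 0.12, adjusted p = 0.0085) and in control (-0.38, SE 0.12, adjusted p = 0.041), and was at -0.32 after HP lactation (SE 0.12, adjusted p = 0.059). The control value missed without day 21 replicate 2 (-0.32, adjusted p = 0.14), day 21 replicate 3 (-0.36, adjusted p = 0.099), day 150 replicate 1 (-0.29, adjusted p = 0.17) or day 150 replicate 2 (-0.35, adjusted p = 0.13). The HP lactation value passed without day 21 replicate 3 or day 150 replicate 4, the array with Xist signal. Abcb4 and Abcb1a both lie on chromosome 5 in RefSeq (GRCm38.p6), at 8893614 to 8959226 and 8567091 to 8748575.

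Abcb1a, a multidrug exporter, had 237, 177 and 321 at day 21 in control, 187, 232 and 178 after HP pregnancy, and 312, 268 and 302 after HP lactation. At day 150 it had 170.1, 74.1 and 173 in control, 101, 182 and 178 after HP pregnancy, and 140.4, 149 and 113 after HP lactation. The days did not overlap in control and after HP lactation and did after HP pregnancy. It fell after HP lactation (-1.14, SE 0.31, adjusted p = 0.011), and was at -0.88 in control (SE 0.31, adjusted p = 0.056) and -0.41 after HP pregnancy (SE 0.31, adjusted p = 0.36). The control value passed without day 21 replicate 2, day 150 replicate 1 or day 150 replicate 3. The remaining Abcb1a probe set had signals of 25.8 to 211 and fell too, by 1.18 averaged over diets (SE 0.28, adjusted p = 0.0041). With the 3'/5' ratios as covariates the sign of the brighter probe set turned, to 0.94 after HP lactation (SE 0.72, adjusted p = 0.91) and to 1 averaged over diets (SE 0.6, adjusted p = 0.71).

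Abcc2, the canalicular exporter of conjugates, had 4354, 3989 and 4889 at day 21 in control, 4642, 2738 and 4985 after HP pregnancy, and 3514, 4607 and 4466 after HP lactation. Day 150 gave 2855, 3692 and 3852 in control, 3052, 3561 and 1900.5 after HP pregnancy, and 3982, 4431 and 4113 after HP lactation. In each HP pregnancy group 1 array was far below its companions. Abcc2 did not pass by day in any diet: it was at -0.35 in control (95% confidence interval -0.81 to 0.11), -0.54 after HP pregnancy (-1 to -0.08, adjusted p = 0.083) and 0 after HP lactation (-0.46 to 0.46). The HP pregnancy value passed when HP pregnancy day 21 replicate 2 or day 150 replicate 2 was left out.

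Abcg2, an exporter of drugs and other foreign compounds, had 4312, 4848 and 4470.1 at day 21 in control, 4251, 4411 and 4479 after HP pregnancy, and 3491, 4059 and 3606 after HP lactation. The arrays of day 150 gave 5533, 6436 and 5366 in control, 5238, 5022 and 3989.8 after HP pregnancy, and 5036, 5250 and 5680.4 after HP lactation. The days overlapped after HP pregnancy only. Abcg2 rose after HP lactation (0.52, SE 0.12, adjusted p = 0.003) and in control (0.34, SE 0.12, adjusted p = 0.045), and was at 0.11 after HP pregnancy (SE 0.12, adjusted p = 0.54). The control value missed the threshold without any 1 of the 6 arrays (0.26 to 0.4, adjusted p from 0.052 to 0.2).

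Abcc3, which returns conjugates to the blood, had 2399.5, 3508 and 3086 at day 21 in control, 2811, 2559 and 2666 after HP pregnancy, and 2598, 2530.3 and 1415 after HP lactation. Its signals at day 150 were 4719.9, 3999 and 4283 in control, 3103, 3326 and 3384 after HP pregnancy, and 3685, 3600.4 and 4609 after HP lactation. Within each diet all arrays of day 150 lay above those of day 21, and the lowest value of day 21 was again HP lactation replicate 3. Abcc3 rose after HP lactation (0.91, SE 0.19, adjusted p = 0.0017) and in control (0.55, SE 0.19, adjusted p = 0.049), and was at 0.29 after HP pregnancy (SE 0.19, adjusted p = 0.28). The control value missed without day 21 replicates 1 or 3 (0.39 and 0.58, adjusted p = 0.19 and 0.086) and without day 150 replicates 1, 2 or 3 (0.48, 0.6 and 0.55, adjusted p = 0.14, 0.08 and 0.097).

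Abcc6, linked to ATP release, had 1251, 1675 and 1273 at day 21 in control, 1206, 1686 and 1296 after HP pregnancy, and 1417, 1566 and 1530.5 after HP lactation. At day 150 it had 1302, 1029.8 and 1338 in control, 852, 887 and 1049.8 after HP pregnancy, and 1273, 1108 and 968 after HP lactation. The days overlapped in control and not in the HP groups. Abcc6 fell after HP pregnancy (-0.58, SE 0.16, adjusted p = 0.013) and after HP lactation (-0.44, SE 0.16, adjusted p = 0.049), and was at -0.19 in control (SE 0.16, adjusted p = 0.45). The HP pregnancy value missed without day 21 replicate 2 (-0.43, adjusted p = 0.09) or day 150 replicate 1 (-0.52, adjusted p = 0.053). The HP lactation value missed without day 21 replicates 1, 2 or 3 (-0.48, -0.41 and -0.43) and day 150 replicates 5 or 6 (-0.44 and -0.34). Whether the change by day differed between the diets was tested for each HP group against control as the difference of the diet responses, given below.

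Against control offspring of the same day, 0 of the 9 transporters passed the threshold in limma after either HP diet at either day. At day 21 after HP pregnancy 0 members had an unadjusted p under 0.05, against 9.98% of all genes, and 0% of all genes passed after adjustment. At day 21 after HP lactation 2 had an unadjusted p under 0.05, against 14.3%, with 0.172% of all genes called. At day 150 after HP pregnancy 5 did, against 20.0%, with 2.63% called, and at day 150 after HP lactation 1 did, against 7.72%, with 0.00908% called. The comparisons at a day share their 3 control arrays. The median standard error of a difference between groups was 0.189 over all genes, and 0.12 to 0.31 for the members, so that small differences were not detectable with these arrays.

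**Figure D4:**
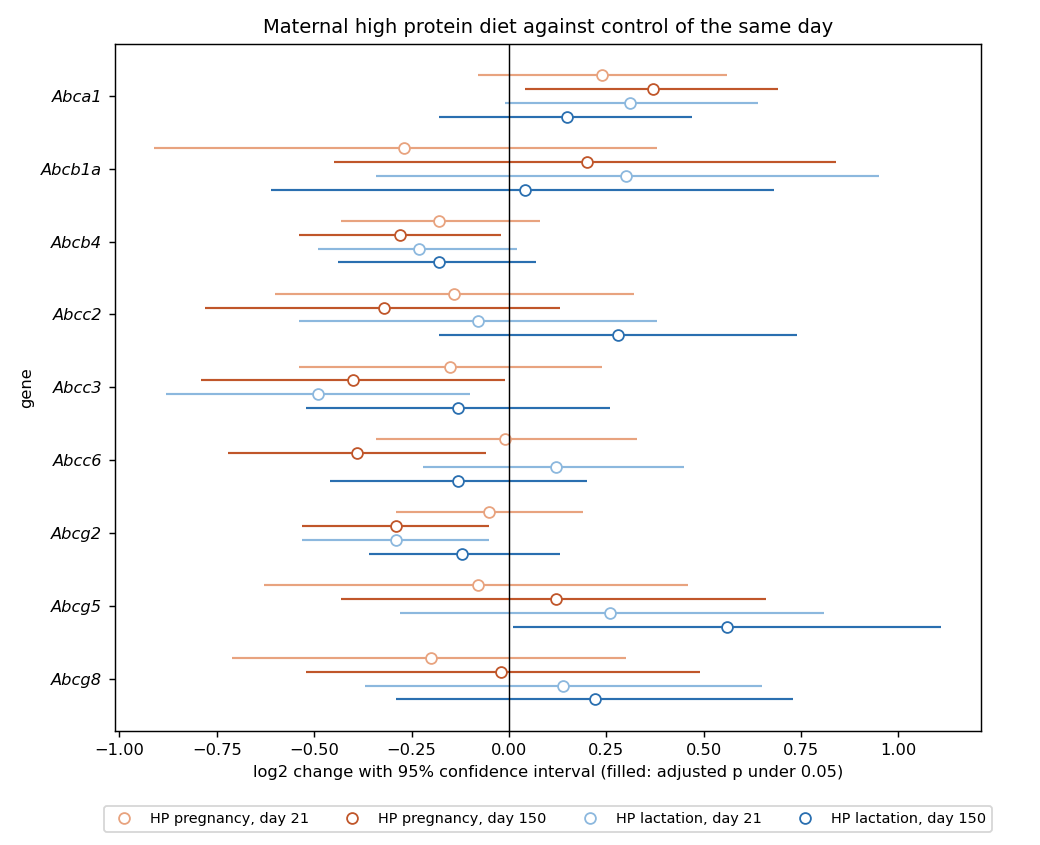
Log2 change of the 9 genes (vertical axis) after each maternal HP diet against control of the same day (horizontal axis; points are the fitted change, lines its 95% confidence interval; a filled point would mark an adjusted p under 0.05). No point is filled, and the intervals that leave out 0 include those of Abca1, Abcb4, Abcc3, Abcc6 and Abcg2 after HP pregnancy at day 150.

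The 5 members with an unadjusted p under 0.05 at day 150 after HP pregnancy were Abca1 at 0.37 (95% confidence interval 0.04 to 0.69, adjusted p = 0.19), Abcb4 at -0.28 (-0.54 to -0.02, adjusted p = 0.21), Abcc3 at -0.4 (-0.79 to -0.01, adjusted p = 0.23), Abcc6 at -0.39 (-0.72 to -0.06, adjusted p = 0.17) and Abcg2 at -0.29 (-0.53 to -0.05, adjusted p = 0.16). In 4 of these, all but Abcc6, the 3 HP pregnancy arrays lay beyond the 3 control arrays; over all genes the HP pregnancy arrays lay wholly above in 15.1% and wholly below in 12.9%. Single arrays moved some of these values: Abcb4 was at -0.16 (SE 0.13) without control replicate 3, and Abcg2 at -0.17 (SE 0.12) without HP pregnancy replicate 3. Abca1 was the member that an alternative brought past the threshold: without the arrays with Xist signal, neither of which belongs to the groups compared, it rose by the same 0.37 with a smaller error (SE 0.09, adjusted p = 0.031). Its dimmer probe sets were at 0.16 (SE 0.31) and 0.27 (SE 0.43). Abcg5 and Abcg8 were at 0.12 (-0.43 to 0.66) and -0.02 (-0.52 to 0.49), Abcb1a at 0.2 (-0.45 to 0.84) and Abcc2 at -0.32 (-0.78 to 0.13). The median of the 9 members was -0.28, and that of all genes 0. The mean Gapdh 3'/5' ratio was 1.75 on the HP pregnancy arrays of day 150 and 1.48 on the control arrays, and with both 3'/5' ratios as covariates 0 members and 5 of all genes passed in this comparison, where 290 of all genes had. In that fit Abca1 was at 0.38 (SE 0.18), Abcb4 at -0.25 (SE 0.15), Abcc3 at -0.26 (SE 0.22), Abcc6 at -0.28 (SE 0.17) and Abcg2 at -0.33 (SE 0.14), and Abcb1a, at 0.2 before, was at 0.72 (SE 0.31).

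After HP lactation at day 21, Abcc3 was at -0.49 (95% confidence interval -0.88 to -0.1, adjusted p = 0.25) and Abcg2 at -0.29 (-0.53 to -0.05, adjusted p = 0.28). For Abcg2 the 3 arrays lay below the 3 of control, as in 8.71% of all genes, and for Abcc3 they overlapped. The Abcc3 value rests in large part on HP lactation replicate 3, at 1415: without it Abcc3 was at -0.21 (SE 0.15, adjusted p = 0.54). Abca1 was at 0.31 (-0.01 to 0.64), a value set in part by control replicate 2, the array with Xist signal: without both such arrays it was at 0.05 (SE 0.1, adjusted p = 0.91). HP lactation replicate 3 also moved Abcg5 and Abcg8, which were at 0.26 (-0.28 to 0.81) and 0.14 (-0.37 to 0.65) with all arrays. Without that HP lactation array they were at 0.6 (SE 0.24, adjusted p = 0.24) and 0.54 (SE 0.18, adjusted p = 0.17). Without HP lactation replicate 1 they were at 0.03 (SE 0.27) and -0.15 (SE 0.23). Abcb1a was at 0.3 (-0.34 to 0.95), Abcb4 at -0.23 (-0.49 to 0.02), Abcc2 at -0.08 (-0.54 to 0.38) and Abcc6 at 0.12 (-0.22 to 0.45). At day 150 after HP lactation the member with an unadjusted p under 0.05 was Abcg5, at 0.56 (0.01 to 1.11, adjusted p = 0.63). The highest of the 3 HP lactation arrays, replicate 4 at 3280.1, has Xist signal. Without both arrays with Xist signal Abcg5 was at 0.44 (SE 0.3, adjusted p = 0.71). In 3 members, Abcg5, Abca1 (0.15, -0.18 to 0.47) and Abcc2 (0.28, -0.18 to 0.74), the HP lactation arrays lay above all 3 of control, as they did in 7.42% of all genes. Its partner Abcg8 was at 0.22 (-0.29 to 0.73).

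After HP pregnancy at day 21 the members ran from -0.27 for Abcb1a (95% confidence interval -0.91 to 0.38) to 0.24 for Abca1 (-0.08 to 0.56), with 8 of 9 values negative and a median of -0.14 where that of all genes was 0.01. The smallest adjusted p among them was 0.63. The Abca1 value went to -0.02 without the arrays with Xist signal.

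Set against each other, the HP groups differed in 0 of 9 members at both days in limma. At day 21 the members had 0 unadjusted p under 0.05 (14.9% of all genes; 1.28% called), and at day 150 they had 1 (17.4% of all genes; 0.717% called). That member, Abcc2, was lower after HP pregnancy at day 150 by 0.6 on the log2 scale (-0.6, 95% confidence interval -1.06 to -0.14, adjusted p = 0.16), with the HP pregnancy arrays at 3052, 3561 and 1900.5 and the HP lactation arrays at 3982, 4431 and 4113. Without HP pregnancy replicate 3, at 1900.5, it was at -0.34 (SE 0.21, adjusted p = 0.47). At day 21 Abcg8 was at -0.35 (SE 0.24, adjusted p = 0.54), and without HP lactation replicate 3, its low array, it was lower after HP pregnancy past the threshold (-0.74, SE 0.18, adjusted p = 0.031). Abcg5 was then at -0.69 (SE 0.24, adjusted p = 0.12) and Abcc3 at 0.06 (SE 0.15, adjusted p = 0.87), against -0.35 and 0.35 with all arrays.

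The response to each HP diet was compared between the days. For HP pregnancy the difference (day 150 minus day 21) ran from -0.39 for Abcc6 (95% confidence interval -0.86 to 0.08) to 0.46 for Abcb1a (-0.45 to 1.38), and for HP lactation from -0.26 for Abcb1a (-1.18 to 0.65) to 0.36 for Abcc2 (-0.29 to 1.01) and for Abcc3 (-0.19 to 0.91). In limma 0 of 9 members passed in either test, with smallest adjusted p of 1 and 0.93 and 0 unadjusted p under 0.05. Over all genes 0.0182% were called in each, and 3.87% and 5.10% had an unadjusted p under 0.05. The same tests ask whether the change by day differed between an HP group and control. Calls made in control and missed in an HP group, or the reverse, are thus not shown to differ between them. Whether the change by day differed between the HP groups was not tested.

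In the order of group means, each member's highest and lowest groups differed by 1.52-fold (Abca1) to 3.15-fold (Abcg5). In 5 members all 3 group means of day 21 lay above all 3 of day 150 and in 2 the reverse, against 21.2% and 23.3% of all genes, and 5 members had neighbours in the order whose arrays did not overlap, against 35.8%. For Abcg5 and Abcg8 all 3 groups of day 21 ranked above all 3 of day 150, and the neighbours whose arrays did not overlap were HP pregnancy day 21 and HP lactation day 150. Abcb1a, Abcb4 and Abcc6 had the same split by day, with every pair of neighbours overlapping. Abcg2 and Abcc3 had the reverse split. For Abcc3 the neighbours HP lactation and HP pregnancy of day 150 did not overlap, and for Abcg2 those without overlap were HP pregnancy and HP lactation of day 21. For Abca1 HP pregnancy day 150 (mean signal 11212) stood apart from the next group, HP lactation day 150 (9630).

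Over all 18 arrays the genes whose log2 signal was most like that of a member included Cirbp for Abcg5 (r = 0.939), Slc2a1 for Abcg8 (0.937), Ocln, of tight junctions, for Abcb4 (0.951), Sec11a for Abcg2 (0.928), Slc25a26 for Abcc6 (0.922), Macf1 for Abca1 (0.916), Atp1b1 for Abcb1a (0.902), Clcn2 for Abcc3 (0.881) and Synpo2l for Abcc2 (0.876). Abcg5 and Abcg8 were each the gene next most like the other (0.935). These values pool both days, so any change by day enters them, and the list changed within days. Over the 9 arrays of day 21 the gene most like Abcg5 was Cpt1a (0.952) and over those of day 150 Trim24 (0.948). For Abcb4 they were Plin2 (0.957) and Ptgds (0.946).

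Of 29 other ABC transporter genes listed, 21 were tested. By day, 1 rose and 3 fell in control, 1 rose and 4 fell after HP pregnancy, and 2 rose and 5 fell after HP lactation. These 4, 5 and 7 genes called of 21 stand beside the 17.8%, 23.6% and 25.7% of all genes given above, and the median log2 change was -0.12, -0.06 and 0.05. Abcd2, a peroxisomal transporter of very long chain fatty acids, fell in all 3 diets (-2.23, -2.86 and -2.77, SE 0.42 each), and Abcb10, of the mitochondrial inner membrane, rose in all 3 (0.84, 0.65 and 1.06, SE 0.17 each). Abcc4, a sinusoidal exporter, fell in control (-0.78) and after HP lactation (-2.2, SE 0.25 each), and it is the gene of this list that differed from control by diet, with a mean signal of 580 after HP lactation at day 21 and of 198 in control (1.55, SE 0.25, adjusted p = 0.01). Abcg1, another cholesterol exporter and LXR target, fell after HP pregnancy (-0.61) and HP lactation (-0.85, SE 0.21 each). Abcb11, the canalicular bile salt pump, was at 0.22 in control (SE 0.14, adjusted p = 0.31).

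**Figure D5:**
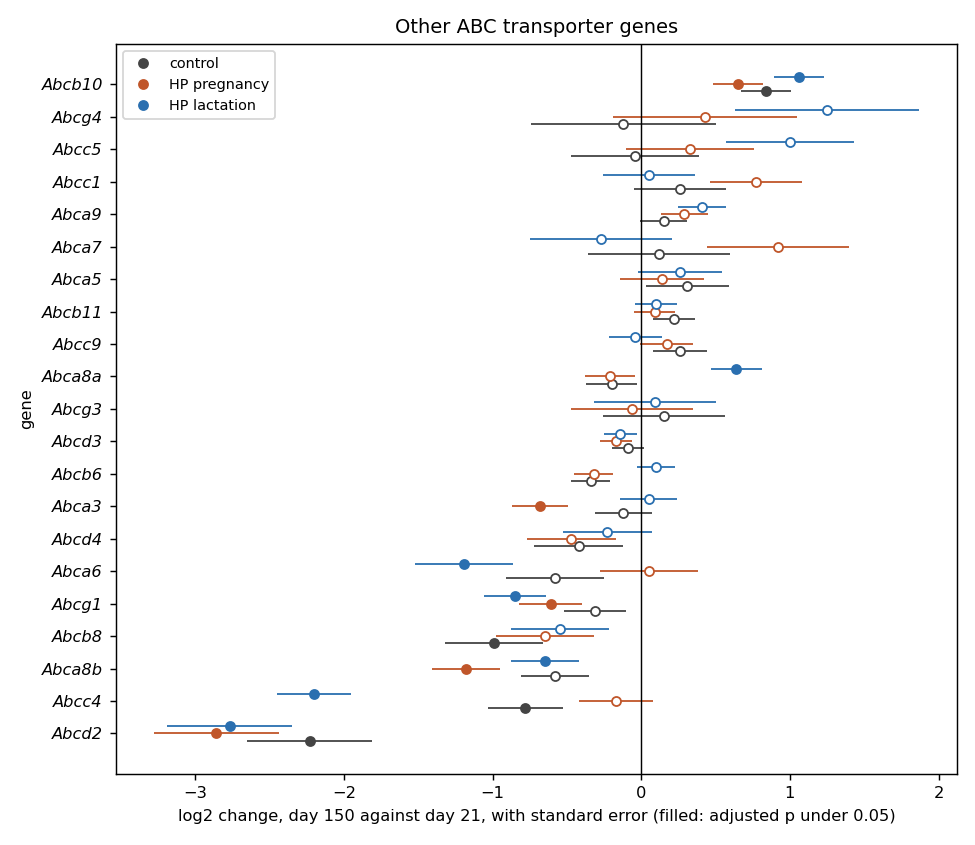
Log2 change from day 21 to day 150 (horizontal axis) of the 21 tested ABC transporter genes outside the 9 members (vertical axis), within each maternal diet; points are the fitted change, lines its standard error, and filled points have an adjusted p under 0.05. Abcd2 is lowest in all 3 diets and Abcb10 is filled above 0 in all 3.

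The lists of genes of the pathways around the members are described by their counts, each to be read beside the 17.8% (control), 23.6% (HP pregnancy) and 25.7% (HP lactation) of all genes called by day. Several counts lie near these shares, and nothing particular to a list is drawn from them. Of 9 LXR targets other than the members, 1 rose and 4 fell in control, 0 rose and 4 fell after HP pregnancy, and 2 rose and 3 fell after HP lactation. Lpl, lipoprotein lipase, fell in all 3 diets (-2.5, -2.69 and -2.86, SE 0.28 each), as did Lpcat3, which remodels phospholipids (-0.84, -1.09 and -0.59, SE 0.15 each). Pltp, the phospholipid transfer protein, rose in control (0.82) and after HP lactation (0.77, SE 0.22 each). Among 10 partners of cholesterol efflux and uptake, Scarb1, the receptor of high density lipoprotein, fell in all 3 diets (-0.93, -1.05 and -0.61, SE 0.13 each), as did Lcat, which esterifies its cholesterol (-0.74, -0.85 and -0.52, SE 0.12 each). Against control of the same day 0 of 9 and 0 of 10 genes of these lists were called, for both HP diets and both days; the calls by diet in the other lists are given with them.

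Of 18 nuclear receptors and other regulators, 3 rose and 2 fell in control, 3 rose and 5 fell after HP pregnancy, and 3 rose and 5 fell after HP lactation. Hnf4a, a master regulator of hepatocyte genes, rose in all 3 diets (0.43, 0.52 and 0.49, SE 0.11 each), and Nr1i3, which encodes CAR, fell in control (-0.81, SE 0.21). Of 8 FXR targets, 0 changed in control and after HP pregnancy, and 1, Fetub, rose after HP lactation (0.39, SE 0.12). Of 13 NRF2 targets, 0 rose and 5 fell in control, 2 rose and 6 fell after HP pregnancy, and 0 rose and 8 fell after HP lactation. Nqo1, a quinone reductase, fell in control (-1.08, SE 0.29) and Gstm3, a glutathione transferase, in all 3 diets (-1.61, -2.69 and -3.18, SE 0.47 each). By diet 1 of the 13 rose against control, Abcc4 after HP lactation at day 21, with the values given above. Of 11 CAR and PXR targets, 1 rose and 2 fell in control, 1 rose and 2 fell after HP pregnancy, and 1 rose and 4 fell after HP lactation. Ces2a, a carboxylesterase, was the one that rose in all 3 (0.81, 0.89 and 1.04, SE 0.14 each).

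On the uptake side, 1 of 10 sinusoidal uptake transporters rose and 1 fell in control, 1 rose and 4 fell after HP pregnancy, and 4 rose and 2 fell after HP lactation. Slco2b1 rose in all 3 diets (0.82, 0.78 and 1.58, SE 0.16 each), and Slc10a1, the main bile salt uptake transporter, fell in control (-0.56) and after HP pregnancy (-0.6, SE 0.13 each). By diet 1 of the 10 fell against control after HP lactation at day 21, Slco1a1, an organic anion uptake transporter (-1, SE 0.14, adjusted p = 0.0035), and 1 after HP pregnancy at day 150, Slc29a1, a nucleoside transporter (-0.69, SE 0.14, adjusted p = 0.025). Among 13 partners and anchors of the canalicular membrane, 1 rose and 1 fell in control, 1 rose and 3 fell after HP pregnancy, and 2 rose and 0 fell after HP lactation. Ezr, ezrin, fell in control (-0.79) and after HP pregnancy (-0.82, SE 0.18 each), and Slc9a3r1, a scaffold of membrane proteins, rose in the HP groups (0.62 and 0.73, SE 0.18 each). By diet 1 of the 13 fell against control, Aqp8, a water channel, after HP pregnancy at day 150 (-1.14, SE 0.28, adjusted p = 0.041). No gene of the regulators or of the FXR, CAR and PXR lists was called against control, and with HP lactation as reference Pparg, of the regulators, was lower after HP pregnancy at day 21 (-1.18, SE 0.25, adjusted p = 0.025). In that comparison 1 of 21 other ABC genes was higher and 1 lower, 1 of 13 NRF2 targets was lower and 1 of 10 uptake transporters was higher. At day 150, 1 uptake transporter was lower. Of all genes 1.28% were called between the HP groups at day 21 and 0.717% at day 150, and the lists can share a gene. All counts by day carry the limit given for the members: with the 3'/5' ratios as covariates the number of all genes called went from 1959 to 59 in control, from 2602 to 3 in the HP pregnancy groups and from 2830 to 19 in the HP lactation groups.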

How the data were processed

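Liver RNA pools were hybridised to 18 arrays, 3 per group. The deposited values are intensity signals per probe set on a linear scale, made by the authors with MAS5 in GCOS 1.4, per the submitters' processing notes; each array's trimmed mean is near 500, and no further filter or genome build is given in the sources used here. A probe set's level cannot be set against another's.

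Signals were taken as log2 with nothing added. Of 45101 probe sets, 64 controls were left out, the brighter part, from the median of the mean log2 signals (5.846) upward, was kept, and each of 11018 genes was represented by its brightest kept probe set. Probe sets were named from the platform annotation, updated by gene ID through RefSeq: 34958 had 1 symbol, 932 several and 9211 none. Group means over all 18 arrays were fitted with limma 3.58.1 (R 4.3.3; eBayes with trend), and p-values were adjusted by Benjamini-Hochberg over all 11018 genes, with 0.05 as threshold. Group means of signal are geometric. Probe sets not chosen for their gene were read from a fit over all 45037 that are no controls. The fit was tested on simulated data.

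The members and the lists of related genes and markers were chosen with earlier results of these data known. Named genes are the members, up to 4 genes of each list with the smallest p in a comparison, the 2 genes most like each member by Pearson's r, and the cell type markers. Alternatives were other filters, normalizations, added constants, probe set choices, variance models and array weights, a replicate block, the 3'/5' ratios as covariates, the compared arrays alone, and leaving out the arrays with Xist signal or any array. Replicate numbers did not pair the arrays: over 30 pairs of same-numbered arrays the correlation of deviations from the group means ran from -0.113 to 0.103.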

Additional observations from a re-analysis of the deposited data

How the results depend on the processing

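Of 263 counts of members called under alternatives, 246 lay within 1.5 times their main value. They include the comparisons with control, between the HP groups and of the responses, whose main counts were all 0. That share therefore says little about the comparisons by day. Day 150 against day 21 in control, with 5 members called, gave 2 with no filter, 2 by eBayes without trend, 3 with every kept probe set, 3 with the compared arrays alone, and 1 to 4 when an array was left out. The same comparison after HP pregnancy, with 4 called, gave 2 to 4 when an array was left out, with 2 without day 150 replicate 1. HP pregnancy against control at day 150, with 0 called, gave 1 without the arrays with Xist signal, and HP pregnancy against HP lactation at day 21, with 0 called, gave 0 to 1, the 1 without HP lactation replicate 3. With the 3'/5' ratios as covariates the count was 0 in all 3 diets, in their average, which was chosen after the data were seen, and in the test of any difference among groups. Abcb1a then turned its sign, to 0.94 after HP lactation and 1 averaged over diets. The replicate block gave 3 called by day in control and 3 after HP pregnancy, and 0 against control where it could be fitted, since the HP lactation arrays of day 150 share no replicate number with another group. Replicates share only a number. Of 23 called changes 21 kept their sign in every alternative and 0 passed in all of them. Of 67 changes not called, 21 turned sign under some alternative and 7 passed under some. Scaling to an equal 75th percentile moved the median of all genes by -0.12 in HP lactation against control at day 21.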
